A study of Mus musculus with 4 samples.

Results

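The Lachnospiraceae of the mouse gut are described here through 5 antibiotic regimens given by 3 routes. Members were all rows of the deposited composition table whose family field is Lachnospiraceae, which gave 103 of 488 taxa, a taxon being 1 row of the table. They belong to 64 genera of 317 in all, with the taxa that have no genus name counted as 1 genus, called unclassified Lachnospiraceae below. Of the 103 taxa, 55 have a species name, 74 were seen in at least 1 library before treatment, 89 in at least 1 library at the end, and 29 were not seen before treatment. The tests covered every genus found in 20% or more of the samples of day 4, which kept 27 Lachnospiraceae genera among 95 of all families and left 37 untested.

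Lachnospiraceae are Gram-positive, strictly anaerobic members of the Clostridia, many of them spore formers, and are among the common fermenting bacteria of the mammalian colon. They break down plant and mucus polysaccharides, and several genera release butyrate, a short-chain fatty acid that colon epithelium burns for energy. Vancomycin and ampicillin block cell wall synthesis, metronidazole acts on anaerobes after it is reduced inside the cell, and neomycin, an aminoglycoside that blocks protein synthesis, has weak activity against strict anaerobes. Many genera of mouse Lachnospiraceae, such as COE1, UBA3282 and CAG-510, carry placeholder names because no cultured type species is described for them.

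The mice were C57BL6/J wild-type animals of 8 to 12 weeks kept specific pathogen free. Each received ampicillin, metronidazole, neomycin, vancomycin, a mix of all 4, or phosphate-buffered saline (PBS), through oral gavage (PO), the peritoneum (IP) or a vein (IV). Doses were 2.5 mg in 100 µl, 2 a day for 3 days and 1 on day 4, and the mice were killed 4 h after the last. Stool of day 0 and day 4 gave 16S ribosomal RNA gene amplicons of the V4 region, sequenced on an Illumina MiSeq. PBS mice of the same route are the control of each comparison, so all 5 regimens of a route share their controls. All values are percent of a library's reads. The total number of bacteria was not measured, so fewer Lachnospiraceae and more of other bacteria cannot be told apart in these percentages.

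The 198 libraries, 107 of day 0 and 91 of day 4, held 2 to 153407 reads, with a median of 23566 at day 4 and 7289 at day 0. At day 4, 4 libraries were under 1000 reads, all from mice given antibiotics, among them a 30-read mix IP library, a 65-read mix IV library and a 70-read neomycin IP library. Of the libraries, 12 came from a second sequencing run named SB1 and 186 from a run named ok122. In 183 libraries the smallest value corresponded to 2 reads, so a taxon listed at 0 may still have had a single read. In 2 groups a pair of libraries differed by no more than sampling noise, and each pair was averaged and counted as 1 sample: replicates 1 and 5 of vancomycin IP, and replicates 3 and 4 of ampicillin IV. The 91 libraries of day 4 thus gave 89 samples.

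Before treatment the family made up 14.95% ± 10.93 (SD, n = 107 libraries) of reads, from 0 to 52.65% with a median of 12.33%. The 0 came from a library of 2 reads, and 24 of the 107 libraries were under 1000 reads. Among those of at least 1000 reads the lowest value was 0.9597%. Unclassified Lachnospiraceae led with 6.475% ± 6.034 and were seen in 106 of the 107 libraries. The next 5 genera by mean were COE1 with 2.298% ± 2.538, UBA3282 with 1.059% ± 1.27, CAG-510 with 0.7176%, Acetatifactor with 0.615% and Eubacterium_J with 0.5896%. Acetatifactor and Eubacterium_J, whose named member Eubacterium plexicaudatum was isolated from the mouse caecum, are butyrate producers.

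In the 16 PBS mice with libraries of both days the family held 10.44% ± 5.259 (SD) at day 0 and 6.754% ± 5.428 at day 4. It was lower at day 4 in 10 mice and higher in 6, a difference of -0.83 on the scale log2(percent + 0.01) with an adjusted p of 0.0591 (limma with the mouse as a block, Benjamini-Hochberg over families). Among mice whose libraries of both days held at least 1000 reads the difference was -0.99, with an limma adjusted p of 0.0383. COE1 fell from 1.759% to 0.646% in these mice, lower in 11 of 16 (log2 difference -1.14, adjusted p = 0.0456), and TWA4 fell from 0.436% to 0.0723%, also lower in 11 of 16 (-1.76, adjusted p = 0.0275). They were 2 of 27 Lachnospiraceae genera, where 4.21% of the 95 genera of all families fell. Porcincola rose in 14 of 16 mice (log2 difference 2.50, adjusted p = 0.00938) and CAG-56 in 12 of 16 (1.77, adjusted p = 0.0239), against 17.9% of all genera. Both rises were lost when only mice with deeper libraries were used, at limma adjusted p-values of 0.0776 and 0.115, and day 0 libraries were the shallower ones. The fall of COE1 was lost there too, at an limma adjusted p of 0.148.

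**Figure D1:**
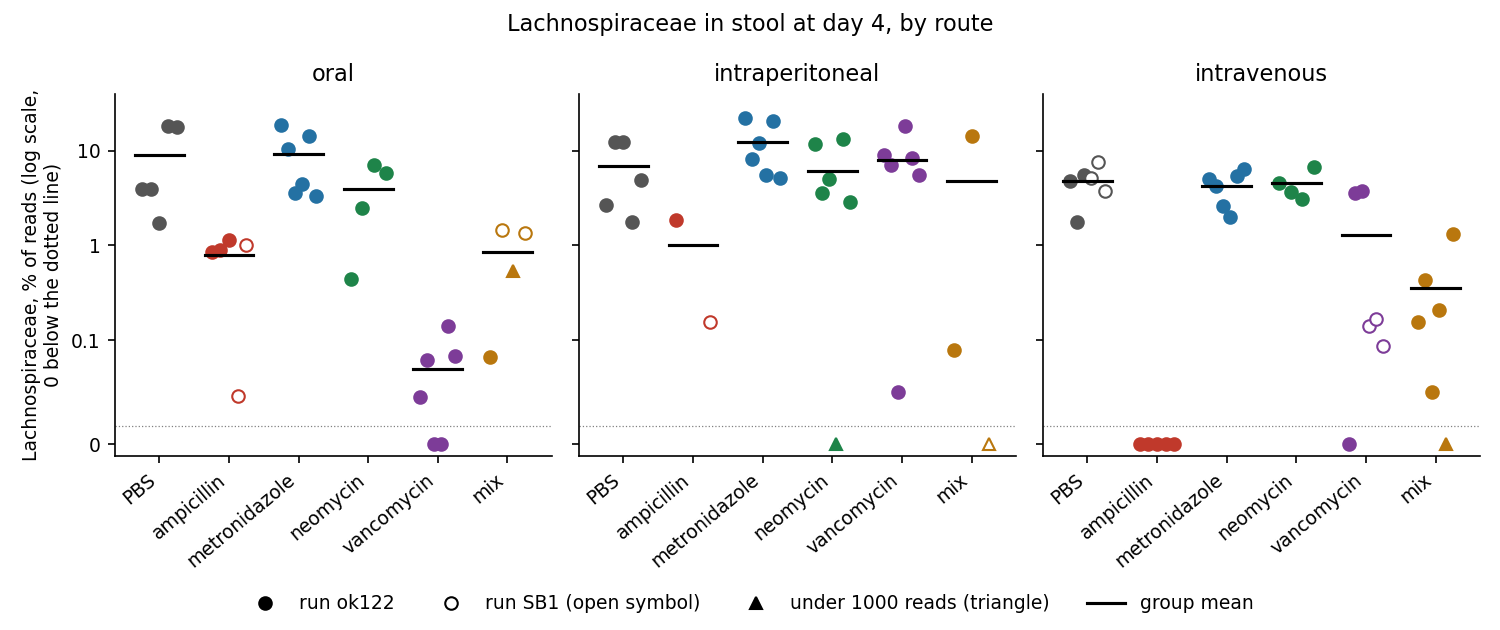
Percent of reads assigned to Lachnospiraceae in each day 4 library (log axis, with 0 drawn below the dotted line), by antibiotic and route; points are libraries, open symbols are run SB1, triangles are libraries under 1000 reads, and horizontal lines are group means. Oral vancomycin lies at 0 to 0.14% against 1.727 to 18.07% in oral PBS, all ampicillin IV libraries are listed at 0, and metronidazole overlaps PBS by every route.

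Oral vancomycin left almost no Lachnospiraceae reads. The 5 oral PBS mice had 3.956, 3.917, 1.727, 18.07 and 17.74% (mean 9.082% ± 8.105, SD), whereas the 6 oral vancomycin mice ranged from 0 to 0.14% with a mean of 0.04915% ± 0.0532. All 6 lay below every PBS mouse. The log2 difference was -7.34 (SE 1.34; adjusted p = 2.24e-06, limma over 39 families). Of the 39 families 18 were lower and 7 higher, and 2 fell further than Lachnospiraceae. The vancomycin mice held 0 to 2 Lachnospiraceae taxa each and 5 between them, against 25 to 53 each and 61 in all among PBS mice. Taxa of all families averaged 20.33 in vancomycin mice and 133.4 in PBS mice.

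Of the 27 Lachnospiraceae genera tested, 18 fell and 0 rose after oral vancomycin, against 58.9% of all 95 genera that fell. Of the 68 genera of other families 7 rose. The median difference of the 27 was -2.30 and that of all genera -1.96, so a large part of the table moved down with the family. With only 5 Lachnospiraceae taxa seen in these mice, the size of the median of the 27 depends on the pseudocount. Unclassified Lachnospiraceae were measured at 0.6265 to 13.45% in PBS mice and in 2 of 6 vancomycin mice, at 0.02534 and 0.0674%, a log2 difference of -7.42 (adjusted p = 1.66e-06, limma). COE1 was seen in 1 of 6 vancomycin mice, with a mean of 0.0121% against 0.48% (log2 difference -4.91, adjusted p = 2.74e-05). Eubacterium_J and UBA3282 were listed at 0 in all 6 vancomycin mice (limma adjusted p = 2.96e-05 and 0.000363). On a centred log ratio, where each genus is set against the mean log level of all genera in its sample, the median shift of all genera moved from -1.958 to 0.246, and 3 Lachnospiraceae genera were lower and 4 higher. A genus listed at 0 in a group can come out higher on the centred scale, so a higher call there need not be a rise in reads. The falls of COE1, Eubacterium_J and unclassified Lachnospiraceae passed the threshold on both scales.

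Oral ampicillin lowered the family as well, but the call rested on few libraries. Its 5 mice had 0.8596, 0.885, 1.139, 0.0255 and 1.002% (mean 0.7821% ± 0.4372, SD), and all lay below the lowest PBS mouse. The difference on the log2 scale was -3.61 (SE 1.4; adjusted p = 0.0216, limma). Replicate 4, the lowest, and replicate 5 came from run SB1, which held no oral PBS library, and in run ok122 alone the difference was -2.67 with an limma adjusted p of 0.165. The call was also lost without ampicillin replicate 4, at -2.65, without PBS replicate 4, at -3.22, or without PBS replicate 5, at -3.23, and with Burkholderia reads removed and percentages rescaled, at -2.00 (limma adjusted p = 0.246).

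Among the genera 13 of 27 fell after oral ampicillin and 0 rose, where 49.5% of all 95 genera fell. Of the 68 genera of other families 6 rose. The medians were -1.90 for the 27 and -1.86 for all genera. Unclassified Lachnospiraceae averaged 0.249% ± 0.197 against 5.70% ± 6.06 in PBS mice (log2 difference -4.33, adjusted p = 0.0063, limma). Eubacterium_J averaged 0.0135% against 0.353% (-3.57, adjusted p = 0.00183), and Porcincola fell by 3.29 on the log2 scale (adjusted p = 0.0115). UBA3282 was seen in 2 of 5 mice (-2.58, adjusted p = 0.0199). COE1 was still measured in 4 of 5 ampicillin mice, at 0.1177, 0.2939, 0.2406 and 0.1926%, against 0.2193 to 0.8605% in PBS mice, and its difference of -1.90 missed the threshold (adjusted p = 0.117). In run ok122 alone 7 genera were lower, and on the centred log ratio 0 were lower and 1 was higher.

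The oral mix gave values of 0.06667, 1.463, 0.5396 and 1.336% in its 4 libraries (mean 0.8514% ± 0.6639, SD), all under the lowest oral PBS value. Here the family difference of -3.51 had an adjusted p of 0.0568 (limma), just short of the threshold. The 2 libraries at 1.463 and 1.336% were of run SB1 and held 19 and 23 Lachnospiraceae taxa, while the other 2 held 1 taxon each. In run ok122 alone the difference was -4.90 with an limma adjusted p of 0.024. At the genus level 7 of 27 fell and 0 rose, against 35.8% of all genera that fell, with medians of -1.69 and -1.445. Of the 68 genera of other families 1 rose. Unclassified Lachnospiraceae averaged 0.289% (log2 difference -4.59, adjusted p = 0.0107), Eubacterium_J differed by -3.98 (adjusted p = 0.00184) and Porcincola by -3.14 (adjusted p = 0.0301). COE1 was seen in 3 of 4 libraries and UBA3282 in 2 of 4, with differences of -1.87 each that missed the threshold. The count of lower genera was 4 without replicate 2b, a library of 556 reads, 12 without PBS replicate 3, and 0 on the centred log ratio.

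Oral neomycin changed which Lachnospiraceae were present, while the family total did not pass the test. The 4 mice had 0.4376, 2.462, 7.121 and 5.866% (mean 3.972% ± 3.07, SD), of which 1 lay below all PBS mice. The log2 difference was -1.23 (adjusted p = 0.585, limma). The number of Lachnospiraceae taxa was lower in all 4 mice than in any PBS mouse, at 1, 7, 17 and 18 against 25 to 53. Taxa of all families averaged 77.5 in neomycin mice and 133.4 in PBS mice.

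COE1, the genus with the second highest mean before treatment, was listed at 0 in 3 neomycin PO mice and at 0.009797% in the fourth, while the 5 PBS mice had 0.2193, 0.4242, 0.2327, 0.6638 and 0.8605%. Their log2 difference was -5.17 (adjusted p = 0.000534, limma). Eubacterium_J was measured in 1 of 4 neomycin mice, at 0.04656%, against 0.07162 to 1.213% in PBS mice (-3.79, adjusted p = 0.00623). UBA3282 was measured in 1 of 4, at 0.007348%, against 0.04923 to 0.5164% (-3.59, adjusted p = 0.00789). These were 3 of 7 genera that fell, against 16.8% of all genera, and the medians were -1.51 for the 27 and -1.017 for all genera. The 7 became 4 without neomycin replicate 1, neomycin replicate 2 or PBS replicate 4, and on the centred log ratio 3 were lower and 2 higher. Set against day 0 of the same mouse, 2 were lower. Unclassified taxa led what was left, with 100, 49.58, 86.62 and 69.02% of Lachnospiraceae reads in the 4 mice, and Ventrimonas had 27.45% in the second. In the 5 oral PBS mice unclassified taxa led too, with 59.91, 26.3, 36.27, 60.93 and 75.82%, so the ranges overlap.

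Merdisoma was higher than in PBS mice after oral neomycin, 1 of 27 genera where 6.32% of all genera were higher. Its single named species in these libraries, Merdisoma sp011959465, gave 0, 0.2137, 0.2753 and 0.6515% in the 4 mice and was seen in 2 of 5 PBS mice (mean 0.0294% ± 0.0408). The log2 difference was 2.62 (adjusted p = 0.0457, limma). At day 0 it was listed at 0 in all 4 of these mice, of which 2 had fewer than 1000 reads. The call was lost without any of replicates 2, 3 or 4 of neomycin or 1, 2 or 3 of PBS, at limma adjusted p-values of 0.11, 0.126, 0.191, 0.0971, 0.0952 and 0.091, and in run ok122 alone (0.0544).

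Given by vein, ampicillin was followed by no listed Lachnospiraceae read at all. The 6 PBS mice of this route ranged from 1.771 to 7.503% (mean 4.739% ± 1.903, SD) with 14 to 33 taxa, and all 5 ampicillin IV libraries, counted as 4 samples, were listed at 0. These libraries held 3621 to 29766 reads and 24 to 29 taxa of other families, so they were not short of reads. The adjusted p was 1.09e-06 (limma), with no fold given because the group is at 0. Of 27 genera 13 fell, against 36.8% of all genera, and the fitted medians, which here depend on the pseudocount, were -2.00 and -1.649. COE1 was lost from a PBS mean of 0.721% ± 0.448 (adjusted p = 2.86e-05), unclassified Lachnospiraceae from 1.02% ± 0.491 (adjusted p = 0.000159), and Acetatifactor from 0.841% (adjusted p = 0.00714). Eubacterium_J, UBA3282 and Velocimicrobium were also listed at 0 (limma adjusted p = 0.000456, 0.0027 and 0.00127). Velocimicrobium was listed at 0 before treatment too in all 5 ampicillin IV mice, 1 of them with under 1000 reads at day 0. On the centred log ratio 5 were lower and 1 higher. All 27 were listed at 0 in these samples, so the higher call is of the pseudocount against the sample mean and not of reads.

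Vancomycin by vein gave 0, 3.593, 3.745, 0.1408, 0.1682 and 0.08642% (mean 1.289% ± 1.845, SD), of which 4 of 6 lay below every PBS mouse and the other 2 within the PBS range. This gave a log2 difference of -4.04 (adjusted p = 0.00817, limma). The values of 0.1408, 0.1682 and 0.08642% were of run SB1, where the 3 PBS mice had 5.142, 7.503 and 3.763%. In run ok122, with 3 mice against 3, the vancomycin values were 0, 3.593 and 3.745% and the difference of -2.81 had an adjusted p of 0.331. With the run as a term in the limma fit the call held. It was lost without vancomycin IV replicate 1, at -3.09 (limma adjusted p = 0.0649).

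COE1 was listed at 0 in 4 of 6 vancomycin IV mice and at 0.06337 and 0.06649% in the others, against 0.1736 to 1.397% in PBS mice (log2 difference -4.92, adjusted p = 4.91e-05, limma). Unclassified Lachnospiraceae averaged 0.289% ± 0.494 (-4.03, adjusted p = 0.00603), and Acetatifactor differed by -3.50 (adjusted p = 0.0204). In all 12 of 27 genera fell and 0 rose, against 37.9% of all genera that fell, with medians of -1.82 and -1.144. Of the 68 genera of other families 4 rose. Eubacterium_J and UBA3282 were among the 12 that fell (-3.33 and -2.86, limma adjusted p = 0.00143 and 0.0064). In run ok122 alone 3 genera were lower, against day 0 of the same mouse 5, and on the centred log ratio 4 were lower and 1 higher. In the mouse with 3.593%, CAG-510 made up 72.22% of the Lachnospiraceae reads, and in the mouse with 3.745% unclassified taxa made up 32.54% and Acetatifactor 20.68%. COE1 made up 45 and 39.53% of the few Lachnospiraceae reads in replicates 4 and 5, both of run SB1, so the remnant was of different genera from mouse to mouse.

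The mix by vein left 0.1543, 0.435, 0.02864, 0.2078, 0 and 1.326% (mean 0.3586% ± 0.4987, SD), all 6 below every PBS mouse. The 0 came from the 65-read library. Replicate 1, at 0.1543%, was from a mouse listed as IP at day 0 and as IV at day 4. The log2 difference was -4.94 (adjusted p = 0.00137, limma), and 1 family of 39 fell further. Among 27 genera 13 fell and 0 rose, with the same background of 37.9% of all genera that fell and medians of -1.87 and -1.463. Of the 68 genera of other families 5 rose. COE1 led with -5.27 (mean 0.0198%, adjusted p = 2.78e-05), followed by Acetatifactor with -4.30 (adjusted p = 0.00451) and unclassified Lachnospiraceae with -3.65 (mean 0.175%, adjusted p = 0.0127). Eubacterium_J and UBA3282 differed by -3.43 and -3.44 (adjusted p = 0.00144 for each). On the centred log ratio 6 were lower and 2 higher.

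Neomycin by vein gave 4.579, 3.682, 3.103 and 6.627% (mean 4.498% ± 1.544, SD), all within the PBS range. Against PBS the log2 difference was -0.01 (adjusted p = 0.994, limma). None of the 27 genera passed the threshold, against 1.05% of all genera called lower, and at an unadjusted p under 0.05 1 genus was lower and 1 higher. COE1 was measured in all 4 mice at 0.4568, 0.2664, 0.6363 and 0.8627%, UBA3282 at 0.8489, 0.3663, 0.1708 and 1.043%, and Eubacterium_J in all 4 as well.

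Given through the peritoneum, the regimens separated less cleanly from PBS, whose 5 mice had 2.676, 12.43, 12.46, 1.784 and 4.876% (mean 6.845% ± 5.234, SD). Ampicillin IP had 2 mice, at 1.861 and 0.157%, and a family difference of -3.21 with an limma adjusted p of 0.142. Of the genera 12 of 27 fell, against 43.2% of all genera, with medians of -2.335 and -1.904. Unclassified Lachnospiraceae averaged 0.0128% against 3.15% (log2 difference -6.78, adjusted p = 0.00281), while Kineothrix and Porcincola were listed at 0 (adjusted p = 0.00611 and 0.0203). COE1 and UBA3282 were each seen in 1 of the 2 mice (-3.64 and -3.05, adjusted p = 0.0287 and 0.0434), and Eubacterium_J in neither (adjusted p = 0.00858). The count was 2 without either ampicillin mouse, 7 without PBS IP replicate 3, and 2 in run ok122 alone, where ampicillin has a single mouse. Set against day 0 of the same mouse, 7 were lower. On the centred log ratio 1 was lower and 1 higher.

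After vancomycin IP the family total overlapped PBS while several genera were listed at 0. Replicates 1 and 5, averaged as 1 sample, had 9.052 and 8.27%, and the other mice had 7.085, 0.02861, 18.04 and 5.48% (mean 7.859% ± 6.555, SD, n = 5). The log2 difference of -0.79 had an adjusted p of 0.658 (limma), and without replicate 3, the lowest, it was 0.78. The libraries held 2 to 15 Lachnospiraceae taxa each against 21 to 35 in PBS mice, with no overlap. In the expected number per 1000 reads, which sets all libraries to 1 depth, 3 of 5 samples lay below every PBS mouse (mean 5.937 ± 3.655 against 14.58 ± 6.023, SD). Taxa of all families in 1000 reads averaged 41 ± 14.51 against 64.62 ± 9.012 (SD).

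COE1 was listed at 0 in all vancomycin IP mice, against 0.4559, 0.1809, 1.981, 0.2764 and 0.72% in PBS mice (adjusted p = 3.78e-05, limma). UBA3282 was also at 0 in all of them, against 0.2899, 0.3727, 0.2477, 0.1157 and 0.2641% (adjusted p = 0.000276). CAG-56 was likewise listed at 0 (adjusted p = 0.0035), as were the other 5 of the 8 genera called lower: Butyribacter, Eubacterium_F, Oribacterium, Robinsoniella and Ventrimonas. The 8 of 27 stand beside 22.1% of all genera that fell, with medians of -1.515 and -1.011, and on the centred log ratio 2 were lower and 2 higher. With day 4 set against day 0 of the same mouse, 0 of the 8 calls remained, COE1 differing by -4.33 (limma adjusted p = 0.143) and UBA3282 by -3.01 (limma adjusted p = 0.578). Of these 6 mice 4 had day 0 libraries under 1000 reads, 1 of them of 2 reads. With such baselines that fit cannot decide whether the genera changed. Without any call of their own, Acetatifactor had 3.495 and 2.397% in replicates 2 and 6, against at most 1.124% in PBS mice, and CAG-510 had 5.49% in replicates 1 and 5 and 1.409% in replicate 2, against at most 0.1586%. Eubacterium_J was seen in 3 of 5 samples (-2.35, adjusted p = 0.0571).

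The genera that made up the family differed from mouse to mouse. Among reads of Lachnospiraceae, CAG-510 took 64.18 and 62.52% in the averaged replicates 1 and 5 of vancomycin IP, Acetatifactor took 49.34% in replicate 2 and 43.74% in replicate 6, and unclassified taxa took 92.84% in replicate 4. In PBS IP mice unclassified taxa took 25.56 to 65.52%, and COE1 14.77 to 17.04% in 4 of 5. A share within the family does not move with reads of other families, and no test was made on it.

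**Figure D2:**
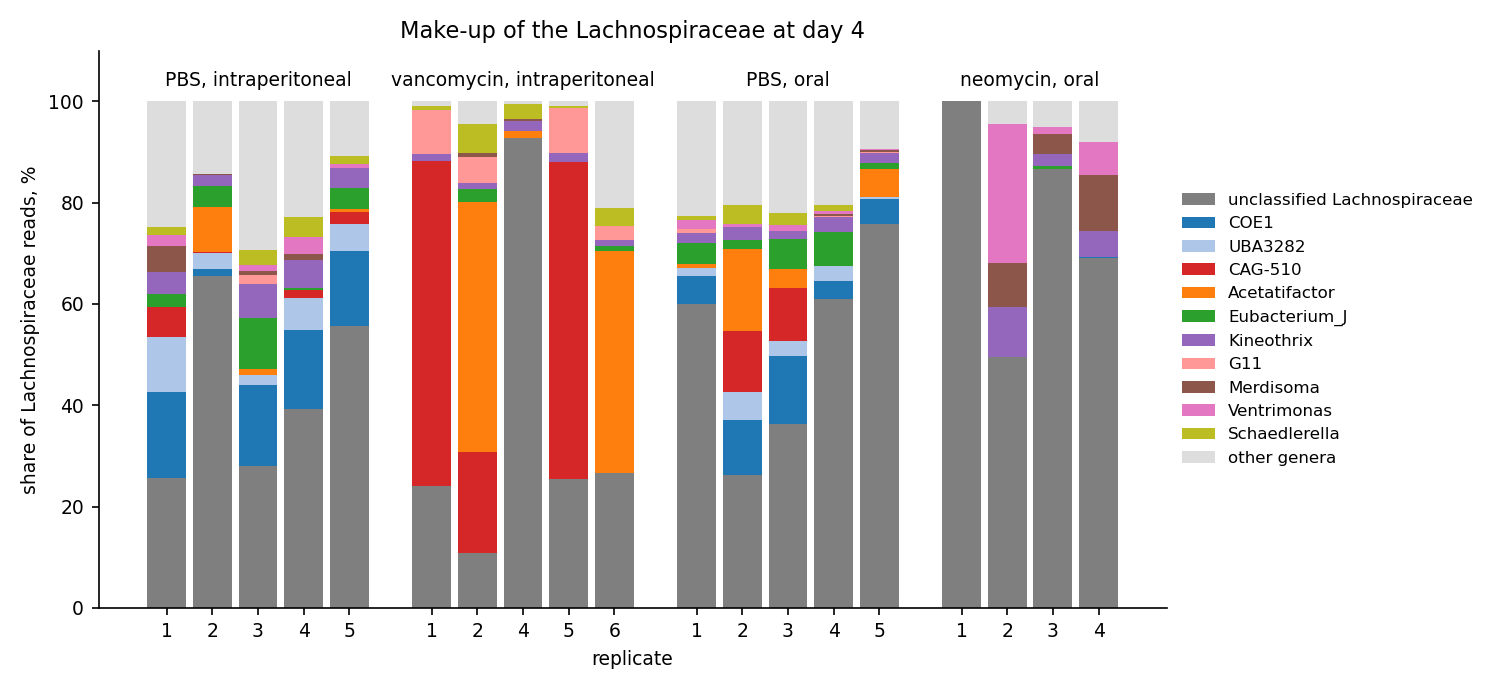
Share of Lachnospiraceae reads (percent, stacked to 100) taken by each genus in PBS and vancomycin IP and in PBS and neomycin PO libraries with at least 50 Lachnospiraceae reads at day 4; each bar is a library, numbered by replicate. COE1 is present in every PBS bar and in no vancomycin IP bar, where CAG-510, Acetatifactor or unclassified taxa take up to 92.84% of what is left.

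The mix IP had 3 mice, at 0.07863, 14.35 and 0%, the last from the 30-read library of run SB1. The family difference of -4.47 had an adjusted p of 0.0395 (limma), yet 1 of 3 mice lay above every PBS mouse. Without the 30-read library it was -2.19 (limma adjusted p = 0.415). It was also lost without mix replicate 1 (-3.77) or without PBS replicate 2 or 3 (-4.15 each), so the call depended on single libraries. Of 27 genera 7 fell, against 29.5% of all genera, with medians of -1.79 and -1.474, led by unclassified Lachnospiraceae (-4.46, adjusted p = 0.0239), UBA3282 (-4.11, adjusted p = 0.00592) and COE1 (-3.44, adjusted p = 0.0248). The count was 1 without mix replicate 1, 13 without replicate 2, and 0 without replicate 3, in run ok122 alone or against day 0 of the same mouse, and on the centred log ratio 0 were lower and 1 was higher.

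Neomycin IP ranged from 0 to 13.23% (mean 6.045% ± 5.221, SD, n = 6), the 0 being the 70-read library. The log2 difference was -1.31 (adjusted p = 0.956, limma), and 0.22 without that library. Of the 27 genera 0 were called, 0% of all genera fell, and at an unadjusted p under 0.05 the limma fit had 0 Lachnospiraceae genera in either direction. COE1 was seen in 5 of 6 mice, UBA3282 in 5 and Eubacterium_J in 4.

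**Figure D3:**
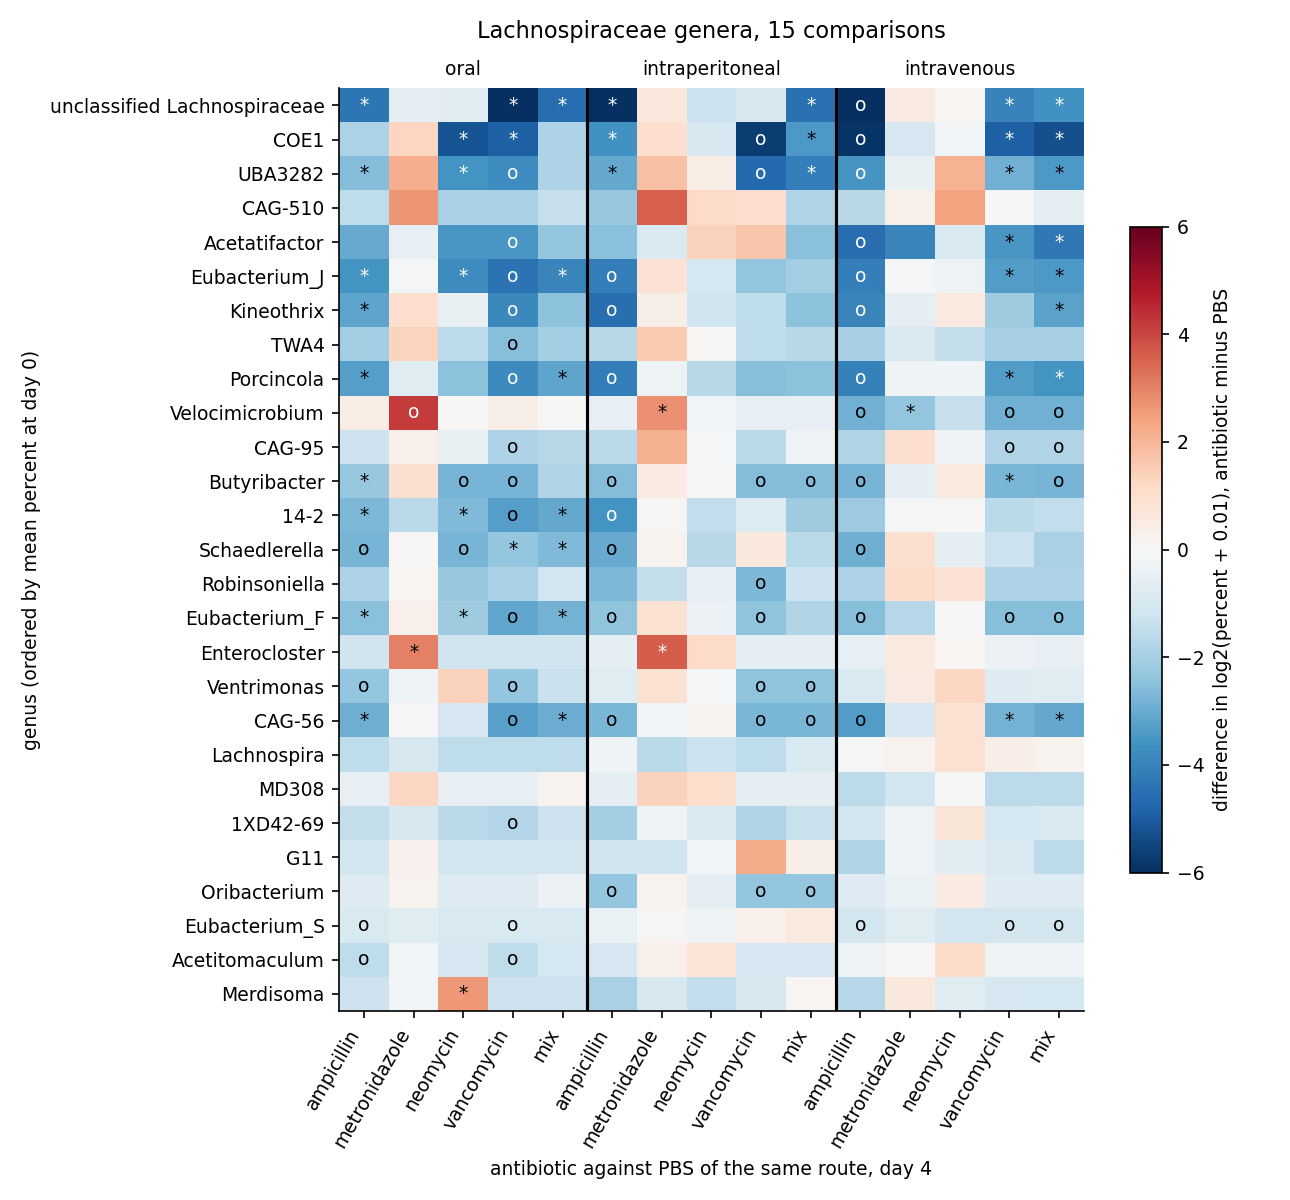
Log2 difference (color, antibiotic minus PBS of the same route, on percent + 0.01) of the 27 tested Lachnospiraceae genera in the 15 comparisons; a star marks a limma adjusted p under 0.05 and a circle the same where a group was listed at 0, so that the color there depends on the pseudocount. Lower calls (111 of 405) lie mostly in the vancomycin, ampicillin and mix columns, with 7 in neomycin PO and 1 in metronidazole IV. Of all 95 genera, 0% (neomycin IP) to 58.9% (vancomycin PO) were called lower in a comparison. The 5 higher calls are Enterocloster and Velocimicrobium in metronidazole PO and IP and Merdisoma in neomycin PO. Of the 68 genera of other families, 0 to 10.3% were called higher in a comparison.

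After metronidazole the family overlapped PBS by every route and passed no test. Oral mice ranged from 3.311 to 18.6% (mean 9.089% ± 6.362, SD, n = 6), IP mice from 5.193 to 21.95% (12.22% ± 7.38, n = 6) and IV mice from 1.979 to 6.353% (4.25% ± 1.681, n = 6). The log2 differences were 0.25, 1.01 and -0.14 (limma adjusted p = 1, 0.944 and 0.94). The mean number of taxa was 29 PO and 23.17 IV, against 36.2 and 25.17 in PBS mice.

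At day 4 Enterocloster was higher than in PBS mice after metronidazole PO and IP. This genus holds spore-forming relatives of Clostridium clostridioforme, and all of its reads in metronidazole mice were of 1 taxon, Enterocloster sp000431375. The 6 oral metronidazole mice had 0.8055, 0.8945, 0.08308, 0.09446, 0.5439 and 0% (mean 0.404% ± 0.396, SD), and the 5 PBS mice 0.1102, 0.04187, 0, 0 and 0%. The groups overlap, since the treated mice at 0, 0.08308 and 0.09446% all lay below the highest PBS mouse. The fitted log2 difference was 3.01 (adjusted p = 0.00497, limma). In IP mice the values were 1.683, 0.333, 0.1298, 0.3531, 0.1003 and 0% (mean 0.433% ± 0.627), against 0.05232% in 1 of 5 PBS mice (3.63, adjusted p = 0.000756). In fits to only the samples compared these limma adjusted p-values were 0.213 and 0.113. By vein Enterocloster was seen in 2 of 6 mice, at 0.03058 and 0.2106%, with no call (0.59, adjusted p = 0.914).

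Velocimicrobium, represented here by Velocimicrobium porci, was the other genus above PBS at day 4. Oral metronidazole mice had 0.7133, 0.05552, 0.08308, 0.06668, 0.5099 and 0.1892% (mean 0.270% ± 0.277, SD), and it was listed at 0 in all 5 oral PBS mice (adjusted p = 3.85e-06, limma, no fold given). In IP mice the values were 0.9818, 0.04756, 0, 0.3579, 0.04514 and 0.04945% (mean 0.247% ± 0.383), against 0.04228% in 1 of 5 PBS mice (2.75, adjusted p = 0.01). The IP call was lost without metronidazole replicate 1 or 4 (limma adjusted p = 0.118 and 0.052). By vein it went the other way, with 0.013% against 0.165% ± 0.202 in PBS mice (-2.37, adjusted p = 0.0353), 1 of 27 genera called lower beside 2.11% of all genera. This lower call was kept under 2 of 9 alternatives. At day 0 Velocimicrobium was already listed at 0 in all 6 metronidazole IV mice, 1 of them with under 1000 reads. PBS IV mice averaged 0.427% at day 0, so the groups differed before treatment. Enterocloster and Velocimicrobium were the only genera of the 95 called higher in metronidazole PO and in metronidazole IP, 2.11% of genera each.

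**Figure D4:**
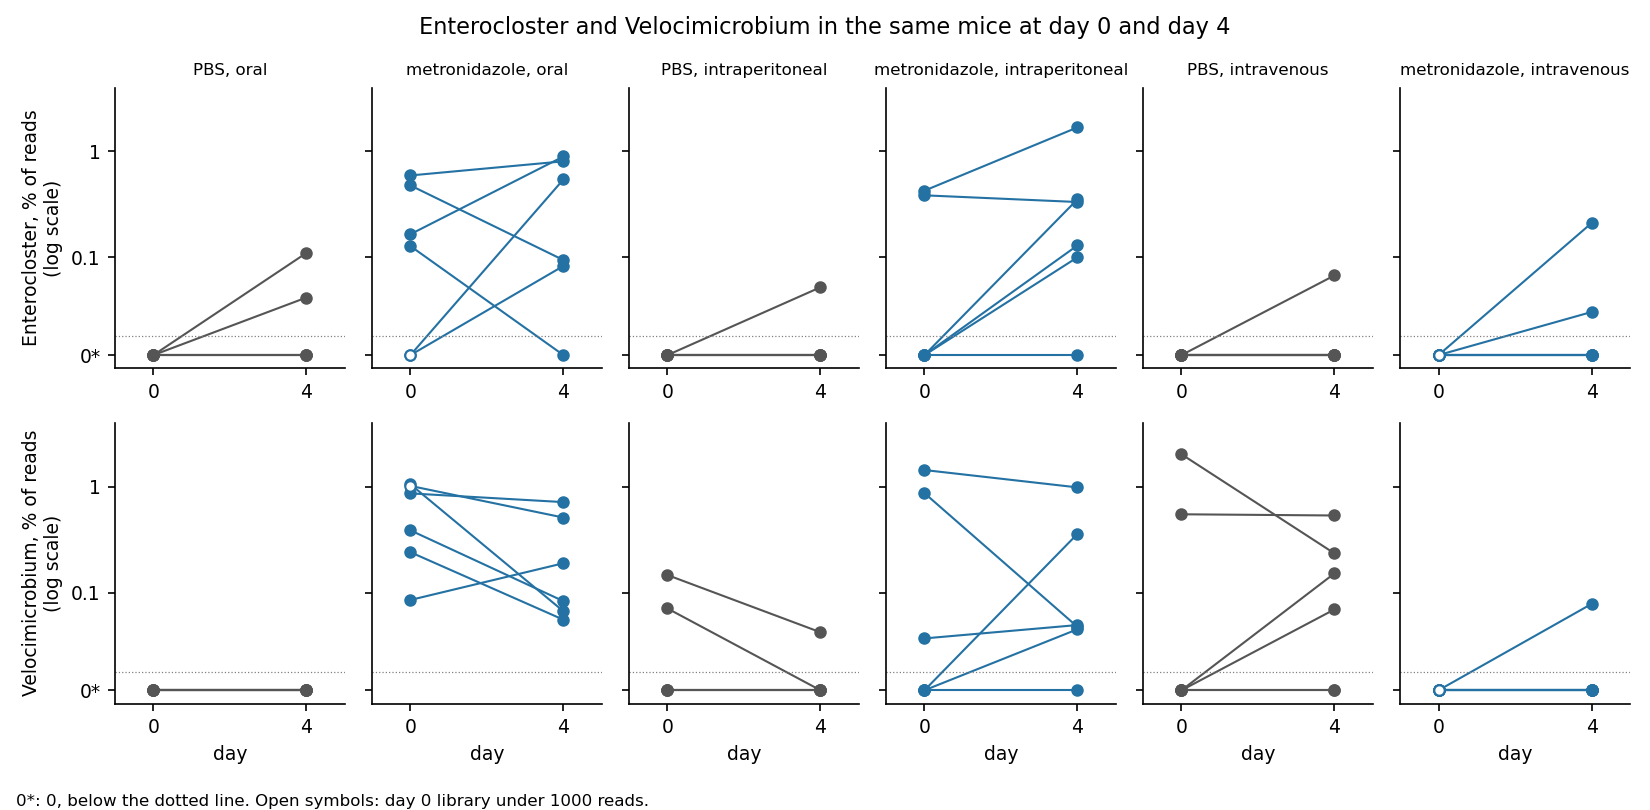
Percent of reads (log axis, with 0 drawn below the dotted line) of Enterocloster and Velocimicrobium in the same mice at day 0 and day 4, in PBS and metronidazole groups; lines join a mouse and open symbols are day 0 libraries under 1000 reads. Oral metronidazole mice already carried Velocimicrobium at day 0 in 6 of 6 and Enterocloster in 4 of 6, while no PBS mouse had Enterocloster at day 0.

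Both genera were already present in many of the same mice at day 0, and Velocimicrobium stood lower at day 4 than before treatment in most of the oral ones. Enterocloster was present before treatment in 4 of 6 oral metronidazole mice, at 0.5928, 0.1655, 0.4771 and 0.1279%, and in 2 of 6 IP mice, at 0.426 and 0.385%. It was listed at 0 in all 16 PBS mice at day 0. From day 0 to day 4 the mean went from 0.2272 to 0.4036% in oral mice, higher in 4 and lower in 2, and from 0.1352 to 0.4332% in IP mice, higher in 4 and lower in 1. Velocimicrobium was present at day 0 in all 6 oral mice (0.6063% ± 0.42, SD) and lower at day 4 in 5 of 6 (mean 0.2696%), and in 3 of 6 IP mice (mean 0.3891% at day 0). When each mouse's day 4 was set against its own day 0 and then against the PBS mice, the oral log2 differences were -0.22 for Enterocloster and -1.33 for Velocimicrobium (limma adjusted p = 0.973 and 0.772). In that fit 0 Lachnospiraceae genera were higher in metronidazole PO or IP.

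At day 4 Enterocloster was listed at 0 in every sample of 9 of the 15 antibiotic groups. In neomycin IP it was seen in 4 of 6 mice, at 0.03626 to 0.07557%, with no call. There it was higher than at day 0 in 4 mice and lower in 1, and PBS IP had it in 1 of 5. Neomycin IV had it in 1 of 4. Among mice with it at day 0, it was at 0 on day 4 in 2 of 2 ampicillin IP mice, 4 of 4 mix IV mice, of which 1 had only 65 reads at day 4, and 2 of 2 mice each of vancomycin PO and IP. In vancomycin IV, 3 mice had it at day 0 and 1 at day 4, at 0.007041%. No tested genus of the family other than Enterocloster, Velocimicrobium and Merdisoma passed the test upward in the 15 comparisons, so 24 of 27 never did. The 37 untested genera are outside this count. Of 68 genera of other families, 0 to 7 were called higher in a comparison, 10.3% at most. At the other end, UBA3282, Butyribacter, CAG-56 and Eubacterium_F were called lower in 9 of 15 comparisons, COE1, Eubacterium_J and unclassified Lachnospiraceae in 8, Porcincola in 7 and Schaedlerella, a genus of the altered Schaedler flora, in 6. CAG-510, Enterocloster, G11, Lachnospira, MD308 and Merdisoma were called lower in 0. Of all 95 genera, 0% (neomycin IP) to 58.9% (vancomycin PO) were called lower in a comparison. The same count per genus is not given here for other families, so nothing particular to the named genera is read from it. The comparisons within a route share their PBS mice, so these counts are not independent.

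**Figure D5:**
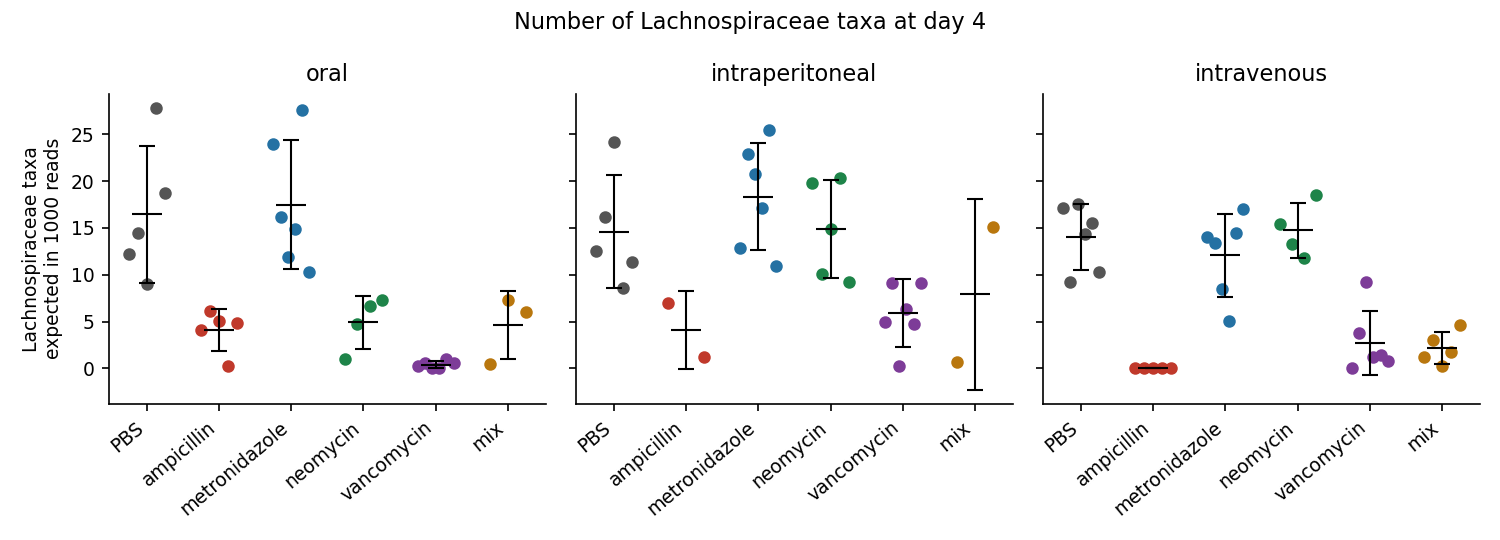
Number of Lachnospiraceae taxa expected in 1000 reads of each day 4 library with at least 1000 reads, by antibiotic and route; points are libraries, and lines with bars are the group mean and SD over samples. Oral neomycin (mean 4.923) and vancomycin IP (mean 5.937) lie low against PBS means of 16.44 and 14.58, although their percent of reads did not pass the test. Taxa of all families, not drawn, were fewer as well, with means of 44.31 and 41 against 67.38 and 64.62.

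The number of Lachnospiraceae taxa separated more groups from PBS than the percent did. All samples lay below every PBS mouse of their route in ampicillin, neomycin, vancomycin and mix PO, in vancomycin and ampicillin IP, and in ampicillin, vancomycin and mix IV. Deeper libraries show more taxa, so the expected number in 1000 reads is given as well. It was 16.44 ± 7.294 (SD) in PBS PO, 17.47 in metronidazole PO, 4.923 ± 2.851 in neomycin PO, 4.058 ± 2.255 in ampicillin PO and 0.3949 ± 0.3974 in vancomycin PO. By vein it was 14.02 ± 3.491 in PBS, 14.77 in neomycin, 12.06 in metronidazole, 2.728 ± 3.425 in vancomycin and 2.194 ± 1.705 in mix. Over all samples of a group, 61 taxa were seen in PBS PO, 57 in metronidazole PO, 31 in ampicillin PO, 29 in mix PO, 22 in neomycin PO and 5 in vancomycin PO. By IP, 60 were seen in neomycin and 21 in vancomycin, against 53 in PBS. Taxa of all families were fewer too, so the loss was not confined to this family. Expected in 1000 reads, they averaged 67.38 in PBS PO, 44.31 in neomycin PO, 23.95 in ampicillin PO and 13.03 in vancomycin PO. Averages by vein were 60.35 in PBS, 26.48 in vancomycin and 35.42 in mix, and by IP 64.62 in PBS and 41 in vancomycin.

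Whether a regimen acted differently by route was tested on the differences themselves. For vancomycin the oral and IP differences of the family total differed by -6.55 (SE 1.94; adjusted p = 0.0145, limma, a contrast added after the values were seen), and those of unclassified Lachnospiraceae by -6.45 (adjusted p = 0.019), where 12.6% of all genera differed. Unclassified Lachnospiraceae were the 1 genus of the 27 to do so. Oral and IV vancomycin were not separated for the family (-3.30, adjusted p = 0.255). For ampicillin the oral and IV family totals had an adjusted p of 0.0511, with the IV group at 0. The family differences for neomycin (-1.22), the mix (1.43) and metronidazole (0.39) did not pass between oral and IV (limma adjusted p = 0.801, 0.834 and 0.983).

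Among the genera, neomycin differed between oral and IV for UBA3282 (-5.68, adjusted p = 0.0145, limma), COE1 (-4.98, adjusted p = 0.0234) and Butyribacter, which was at 0 in the oral group (adjusted p = 0.0432), against 12.6% of all genera. The COE1 and Butyribacter calls held under 3 and 2 of 9 alternatives, and that of UBA3282 under 7. In run ok122 alone, UBA3282 and COE1 each had an limma adjusted p of 0.0708. Velocimicrobium differed between oral and IV metronidazole (limma adjusted p = 2.38e-07, with PBS PO at 0). In a contrast that was not planned, it differed between IP and IV too (5.13, limma adjusted p = 0.00012). It was the single genus of 95 in each, or 1.05%. It was seen in 4 of 6 PBS IV mice and in 0 of 5 PBS PO mice, and in the fit of each mouse against its own day 0 neither difference passed (limma adjusted p = 0.997 and 0.998). Velocimicrobium also differed between oral and IV ampicillin (adjusted p = 0.0313, beside 7.37% of all genera) and vancomycin (adjusted p = 0.0158, beside 9.47%), again with groups at 0.

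By function, the butyrate-producer list had 13 member genera in the table, of which 5 were tested. After oral vancomycin 4 of the 5 fell, after oral ampicillin 3, after oral neomycin 2, and by vein 4 each after ampicillin, vancomycin and the mix, with 0 higher in any of these. The shares of all genera called lower were 58.9, 49.5 and 16.8% in the oral groups and 36.8, 37.9 and 37.9% by vein, and with 5 genera tested nothing is read from the difference. Their summed percent was 0.917% ± 0.698 (SD) in PBS PO, 0.0476% in ampicillin PO, and listed at 0 in vancomycin PO. The list of Clostridium clostridioforme and symbiosum relatives had 7 members with 2 tested, Enterocloster and Velocimicrobium, so its summed 0.691% ± 0.583 in metronidazole PO against 0.0778% in PBS PO is mostly those 2 genera. The list of placeholder-named genera had 14 members and 10 tested, of which 7 fell after oral vancomycin, 3 after oral neomycin and 4 after mix IV, beside 58.9, 16.8 and 37.9% of all genera. The list of Blautia and its relatives had 8 members, and none passed the presence filter. Its summed percent was 0.684% ± 0.899 in ampicillin IP and 0.174% ± 0.249 in ampicillin PO, against 0.0106 and 0.00817% in PBS mice.

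Other families of the Clostridia moved in part with Lachnospiraceae. Of 11 tested, 7 fell and 3 rose after oral ampicillin, 7 fell and 2 rose after oral vancomycin, and 5 fell and 1 rose after vancomycin IP, where Lachnospiraceae as a total did not pass. Over all 39 families these counts were 17 lower and 6 higher, 18 and 7, and 8 and 2. Borkfalkiaceae were among those that rose, with means of 39.79% ± 37.51 (SD, n = 5) in ampicillin PO, 28.99% ± 14.43 (n = 6) in vancomycin PO and 55.66% ± 47.97 (n = 2) in ampicillin IP.

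Finally, 29 of the 103 Lachnospiraceae taxa had not been seen in any day 0 library. Not all of them were seen at day 4 either, since Bariatricus, Fusicatenibacter and Howardella, for example, were in 0 libraries of that day. The same count over all 488 taxa is not given here, so nothing particular to the family is read from it. At day 4 at least 1 of the 29 was seen in 11 of 25 ampicillin or mix libraries, 3 of 16 PBS libraries and 6 of 50 libraries of the other antibiotics. The highest sum was 1.43% in ampicillin IP replicate 1, with 5 such taxa, against at most 0.0351% in a PBS library. They were seen in 9 of 12 libraries of run SB1 and 11 of 79 of run ok122, and all 3 PBS libraries with them were of run SB1, so the run moved with their presence and its part in it was not tested. Within run ok122 they were seen in 7 of 19 ampicillin or mix libraries and 0 of 13 PBS libraries. Blautia_A_141781, a genus close to the acetate-forming gut Blautia, was 1.193% in ampicillin IP replicate 1, where it made up 64.08% of the Lachnospiraceae reads, and 0.3689% in ampicillin PO replicate 3, where it made up 32.39%. Dorea_A was 0.1265% and Anaerostipes 0.1084% in ampicillin IP replicate 1, and Dorea_A was 0.2406% in ampicillin PO replicate 3.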

How the data were processed

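Stool of day 0 and day 4 was measured through 16S V4 amplicons. The deposited composition table gives signal values that the authors scaled to a sum of 100000 per library over all taxa, per the file headers and the values. Which filter, denoiser and taxonomy the reads went through is not stated in what was used here. The deposited sample sheets give antibiotic, day, route, replicate and run. Values were divided into percent, and read numbers were recovered from the smallest steps (100% of values whole within 0.02 reads). Percent was summed by genus and family, and limma 3.58.1 in R 4.3.3 was fitted to log2(percent + 0.01) of all day 4 samples, 1 mean per group, for features present in at least 20% of them, with Benjamini-Hochberg adjustment within each comparison and a threshold of 0.05. The scale understates changes of rare genera. The fit was tested on simulated data. Tables were made with pandas 2.3.3 and numpy 2.4.6, figures with matplotlib 3.10.9.

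The members, lists and tests were chosen with earlier results of these data known. Named genera are the 6 highest at day 0, every genus called higher, the 3 largest falls per comparison, and Enterocloster, Velocimicrobium, COE1, Eubacterium_J and UBA3282 throughout; others were chosen after their values were seen. The lists (butyrate producers, clostridioforme relatives, Blautia relatives, placeholder names) match genus names. Near-identical libraries (chi-square p above 0.05) were averaged, a rule set after values were seen. The labels do not say whether mice shared cages, so p-values measure the spread between these samples. Alternatives were a pseudocount of 0.1%, no presence filter, libraries of at least 1000 reads, run ok122 alone, thinning to 1000 reads, the samples compared alone, day 4 minus day 0 of the same mouse, a centred log ratio, removal of Burkholderia reads, the run as a term (added later), and leaving out each replicate. 1 mix mouse listed as IP at day 0 and as IV at day 4 was left out of comparisons with day 0 and counted as IV at day 4.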

Additional observations from a re-analysis of the deposited data

Results flagged for a closer look

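Among 15 groups of 4 to 6 day 4 samples, where chance marks about 1 in 20, 2 had a sample far from the others in percent of Lachnospiraceae. Ampicillin PO replicate 4, of run SB1, was the lowest of its group at 0.0255%. Mix IV replicate 6 was the highest of its group at 1.33%.

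Differences between routes that passed the limma test were as follows. Those of oral against IP and of IP against IV were not planned. The family total separated oral from IP vancomycin (adjusted p = 0.0145), as did unclassified Lachnospiraceae (adjusted p = 0.019). Oral and IV neomycin separated for UBA3282 (adjusted p = 0.0145), COE1 (adjusted p = 0.0234) and Butyribacter (adjusted p = 0.0432). Velocimicrobium separated oral from IV metronidazole (adjusted p = 2.38e-07), IP from IV metronidazole (0.00012), oral from IV ampicillin (0.0313) and oral from IV vancomycin (0.0158). PBS mice of these routes differed in it as well, with 0 of 5 oral and 4 of 6 IV mice carrying it.

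Taxa of Lachnospiraceae that no day 0 library held reached 1.43% in an ampicillin library, against at most 0.0351% in PBS libraries.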

How the results depend on the processing

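Across the 15 family totals, 122 of 150 values from other settings and 131 of 153 with a replicate left out kept direction and side of the threshold. For called genera these were 823 of 1212 and 1012 of 1151, and 376 and 139 lost the call. The causes were not tested, other than that thinning and leaving out libraries use fewer reads or samples.

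On a centred log ratio the family total was -2.59 for ampicillin PO and -3.16 for mix IP, both short of the threshold. Genera lower there numbered 0 in ampicillin PO, 3 in neomycin PO, 3 in vancomycin PO, 0 in mix PO, 1 in ampicillin IP, 2 in vancomycin IP, 0 in mix IP, 5 in ampicillin IV, 0 in metronidazole IV, 1 in neomycin IV, 4 in vancomycin IV and 6 in mix IV. Genera higher numbered 1 in ampicillin PO, 2 in neomycin PO, 4 in vancomycin PO, 1 in ampicillin IP, 2 in vancomycin IP, 1 in mix IP, 1 in ampicillin IV, 1 in vancomycin IV and 2 in mix IV. Reversed there were Acetitomaculum (ampicillin PO 0.33, vancomycin PO 0.69), Eubacterium_S (ampicillin PO 0.92, vancomycin PO 1.27, ampicillin IV 0.59, vancomycin IV 0.31, mix IV 0.36), and 1XD42-69 (0.43) and CAG-95 (0.34) in vancomycin PO. A genus listed at 0 in a group can come out higher or reversed on this scale without a rise in reads. Eubacterium_S had no reads in vancomycin PO or ampicillin IV, so its values there reflect the pseudocount. The oral minus IV ampicillin difference passed at 4.82 on the centred log ratio.

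With day 4 set against day 0 of the same mouse, family totals were -0.12 for metronidazole PO, 0.49 for vancomycin IP, -4.71 (now called) for mix PO and -3.30 (lost) for mix IP, and the metronidazole oral minus IV difference was -0.10. Genera lower were 2 in neomycin PO, 7 in ampicillin IP, 0 in vancomycin IP, 0 in mix IP, 0 in metronidazole IV and 5 in vancomycin IV, and genera higher were 0 in metronidazole PO, metronidazole IP and neomycin PO. Day 0 libraries under 1000 reads, which limit this setting, numbered 4 of 6 in vancomycin IP and 2 of 4 in neomycin PO. Enterocloster (-0.22) and Velocimicrobium (-1.33) in metronidazole PO reversed, and so did the oral minus IV difference of Velocimicrobium (-1.20).

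Without libraries under 1000 reads, totals were -3.52 for mix PO (called), 0.22 for neomycin IP and -2.19 for mix IP (lost), the ampicillin oral minus IV difference passed at 5.16 and the PBS day difference at -0.99, and lower genera were 4 in mix PO and 3 in mix IP. Thinned to 1000 reads, totals were -5.07 for mix PO (called), 0.01 for neomycin IP, -3.81 for mix IP (lost) and 0.16 for neomycin IV, the mix oral minus IV difference was -0.39, and Eubacterium_F in mix PO was 0.27. Thinned lower genera were 4 in ampicillin PO, 2 in neomycin PO, 5 in vancomycin PO, 1 in mix PO, 5 in ampicillin IP, 2 in vancomycin IP, 1 in mix IP, 8 in ampicillin IV, 0 in metronidazole IV, 7 in vancomycin IV and 6 in mix IV, and higher genera 0 in metronidazole PO, 0 in neomycin PO and 1 in metronidazole IP. In 1000 reads the metronidazole IP taxa were 126% of the PBS mean, against 98.8% of taxa as seen.

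In run ok122 alone totals were -2.67 for ampicillin PO, -2.19 for mix IP and -2.81 for vancomycin IV (all lost), -4.90 for mix PO (called), 0.13 for metronidazole IV and 0.26 for neomycin IV, and the mix oral minus IV difference was -0.24. Lower genera were 7 in ampicillin PO, 2 in ampicillin IP, 0 in mix IP, 0 in metronidazole IV and 3 in vancomycin IV, and higher genera 0 in neomycin PO. With the run as a term, a setting chosen after seeing the data, ampicillin PO was -3.08 and mix IP -4.03 (lost), the ampicillin oral minus IV difference passed at 6.34, and lower genera were 4 in mix PO and 0 in metronidazole IV. Without Burkholderia, ampicillin PO was -2.00 and mix IP -4.47 (lost), that difference 6.76 (called), and lower genera 4 in mix PO and 4 in mix IP.

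At a pseudocount of 0.1%, mix PO was -3.16 (called) and mix IP -3.05 (lost), lower genera were 6 in ampicillin PO, 2 in neomycin PO, 11 in vancomycin PO, 6 in ampicillin IP, 2 in mix IP and 0 in metronidazole IV, and higher genera 2 in neomycin PO and 1 in vancomycin IP. With no presence filter mix IP was -4.47 (lost), lower genera were 2 in metronidazole PO, 4 in mix IP and 0 in metronidazole IV, and higher genera 3 in ampicillin PO, 0 in neomycin PO, 4 in ampicillin IP and 1 in mix IV. Fitted to the samples compared alone, mix PO was -3.51 (called) and mix IP -4.47 (lost), lower genera were 7 in ampicillin IP, 0 in mix IP and 0 in metronidazole IV, and higher genera 1 in ampicillin PO, 1 in metronidazole PO, 0 in neomycin PO and 1 in metronidazole IP.

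Leaving out 1 replicate at a time, family totals ranged from -4.06 to -2.65 in ampicillin PO, -0.21 to 0.64 in metronidazole PO, -4.00 to -2.58 in mix PO, -1.85 to 0.22 in neomycin IP, -1.44 to 0.78 in vancomycin IP, -7.44 to -2.19 in mix IP, -0.40 to 0.05 in metronidazole IV, -0.27 to 0.15 in neomycin IV and -4.80 to -3.09 in vancomycin IV. Lower genera ranged from 4 to 8 in neomycin PO, 4 to 12 in mix PO, 2 to 13 in ampicillin IP, 0 to 13 in mix IP and 0 to 2 in metronidazole IV. Higher genera ranged from 0 to 2 in neomycin PO, 1 to 3 in metronidazole IP and 0 to 1 in vancomycin IP. For antibiotic against PBS, mice of different groups share nothing but a number. No paired analysis was possible because of this, other than pairing the days of the same mouse, as given above. Depth limits the mix and neomycin IP groups most, where libraries of 30 to 70 reads were listed at 0.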
